A study of Homo sapiens with 18 samples.

Results

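Gene expression after IL-4 was compared between THP-1 cells carrying a dominant-negative Mastermind-like protein (DNMAML) and THP-1 cells carrying the empty vector (IRES). The comparison rests on 6 of the 18 RNA-seq libraries of the series, 3 per group, chosen by their titles: those of DNMAML with IL-4 and those of IRES with IL-4, from experiments 1, 2 and 3. THP-1 is an established human monocytic leukaemia line that becomes macrophage-like under phorbol ester (PMA). Both groups were transduced with a retroviral MSCV vector that also carries GFP, sorted for GFP, exposed to 5 ng/ml PMA during 48 h, and stimulated with 20 ng/ml IL-4 during 3 h. The control cells therefore carry the vector, the PMA and the IL-4 as well, and differ in the DNMAML insert. The other 12 libraries are the unstimulated cells of both constructs and the cells with the MYC-tagged NOTCH1 intracellular domain (NIC1), without and with IL-4. The labels do not say whether the sorted cells were a pool or a clone, nor that experiments began from separate cultures. A p-value here is thus read against library-to-library spread only, and some of that spread may be technical.

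Notch receptors are cleaved when a ligand binds, and the freed intracellular domain moves to the nucleus. There it joins the DNA-binding protein RBPJ and a Mastermind-like coactivator (MAML1, MAML2 or MAML3) to switch on genes such as HES1. DNMAML binds the same complex but lacks the part that recruits the transcription machinery, so it is used to block transcription through all Notch receptors. IL-4 acts through its receptor and STAT6 and turns macrophages towards the alternatively activated state, with CISH and SOCS1 among its early targets.

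RBPJ binds the core letters TGGGAA, most often as GTGGGAA. Upstream sequence is shown for HES1 and HES4, the tested Notch targets of the hairy-and-enhancer-of-split family with the largest differences, because both hold GTGGGAA on the gene's strand close to the start. They are the 250 bases before the start in RefSeq (GRCh38.p14), 5′ to 3′ on the gene's strand, with GTGGGAA in capitals. HES1 lies on chr3:194135898-194136147 (plus strand) and HES4 on chr1:1000098-1000347 (minus strand).
HES1: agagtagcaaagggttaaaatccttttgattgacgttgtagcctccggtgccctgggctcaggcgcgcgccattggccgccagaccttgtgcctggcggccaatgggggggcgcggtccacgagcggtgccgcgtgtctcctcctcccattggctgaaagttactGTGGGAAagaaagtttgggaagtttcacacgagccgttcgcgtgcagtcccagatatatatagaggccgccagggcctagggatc
HES4: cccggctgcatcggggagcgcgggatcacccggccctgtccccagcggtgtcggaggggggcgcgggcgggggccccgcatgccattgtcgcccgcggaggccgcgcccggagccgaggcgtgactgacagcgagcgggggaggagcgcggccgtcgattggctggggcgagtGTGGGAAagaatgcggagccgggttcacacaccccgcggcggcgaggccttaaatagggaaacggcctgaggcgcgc

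The capitals begin 85 bases before the start of HES1 and 77 before that of HES4. On either strand, GTGGGAA occurred in 1906 of 35116 RefSeq windows of this length (5.43%), in 3 of the 12 tested Notch target genes found in that table (HES1, HES4 and HEYL) and in 0 of the 13 called genes found in it, against 7.01% of the 11092 tested genes found in it. The shorter TGGGAA, which is contained in it, occurred in 7321 of the windows (20.8%), in 3 of those 12 targets, in 2 of the 8 genes called lower, in 0 of the 5 called higher and in 25% of the tested genes. These are matches of letters and not measured binding, and a window without the letters says nothing of RBPJ elsewhere at that gene.

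The 6 libraries held 13327977 to 14993002 reads assigned to genes, and 15037 genes were tested. DNMAML replicate 3 stood apart: 25322 genes had at least 1 count there, against 21110 to 21557 in the other 5, and lines that name no gene held 30.9% of its reads against 24.1% to 26%. The monocyte genes CSF1R (173 to 290 CPM, the count scaled to the library's total), ITGAM (299.8 to 422 CPM) and SPI1 (289 to 342 CPM) were present in all 6. Others were lower: CD33 at 34.9 to 46.9, LYZ at 21 to 32.8, FCGR1A at 6.28 to 15.6 and CD14 at 2.25 to 9.26 CPM. CD68 was listed at only 0.621 to 1.29 CPM. Some counts and named differences are also given without replicate 3.

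After IL-4, 14 genes differed between DNMAML and IRES cells (adjusted p under 0.05, edgeR's quasi-likelihood F test with the experiment as block and Benjamini-Hochberg adjustment), which is 0.0931% of the genes tested. Lower were 8 genes (0.0532%): the phosphatase ACP5, the transcription factor MAF, the protease MMP7, the scavenger receptor CD36, the keratin KRT3, LGI2, NOTCH1 and RCOR1, which scaffolds the CoREST repressor complex. Higher were 6 genes (0.0399%): MAML1, the protease MMP2, the kinase MAPK13, the IL-13 receptor chain IL13RA1, GABARAPL1, an autophagy protein, and the immediate early factor FOS. Most differences were small, with a median size of 0.44 on the log2 scale, and 8 of the 14 were under 1.5-fold. In 7 of the 14 the levels of the 2 groups did not overlap, against 2.62% of all tested genes that were lower without overlap and 2.86% that were higher. The difference had the same sign in all 3 experiments for each of the 14, as the plot of levels by library shows. Of all tested genes, 15% were lower and 15.2% higher in all 3 experiments. The 14 were picked by a test on these same libraries, so common signs and separate levels are no added support. A difference in RNA per cell and a difference in the share of cells expressing a gene cannot be told apart in these bulk libraries.

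**Figure D1:**
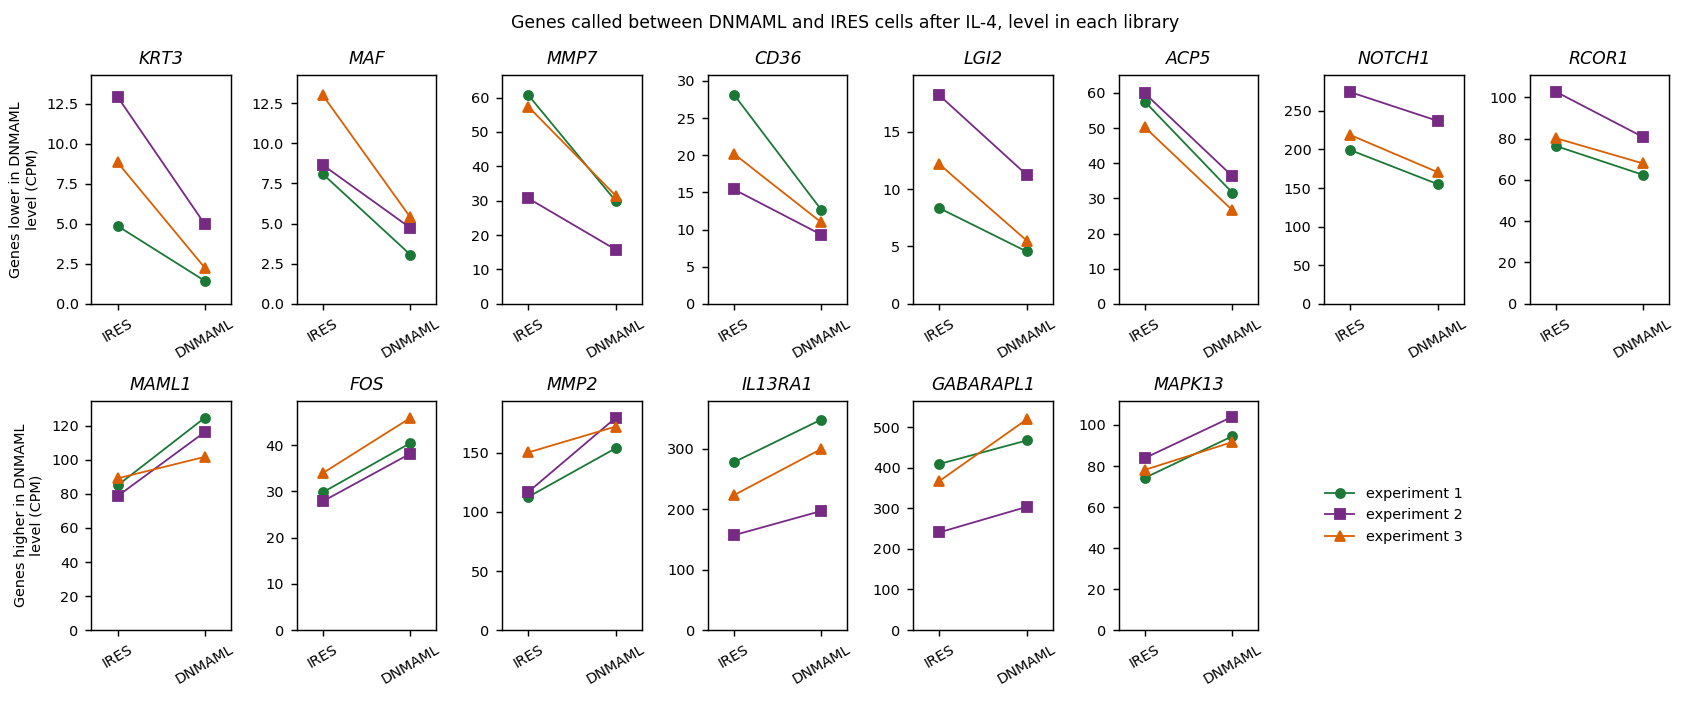
Level in CPM (y axis, from 0) of the 14 called genes in IRES and DNMAML cells after IL-4 (x axis); each point is 1 library and each line joins the libraries of 1 experiment. The 8 genes in the upper row fell and the 6 in the lower row rose in each of the 3 experiments.

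The receptor and the vector-related genes were read first. MAML1 stood at 85, 78.7 and 89.1 CPM in IRES replicates 1, 2 and 3 and at 125, 116 and 102 CPM in the DNMAML replicates of the same numbers. The DNMAML libraries lay above the IRES libraries without overlap, and the rise was 1.36-fold (log2 0.44, SE 0.08, adjusted p = 0.0246). In experiment 3 it was the smallest of the 3, at 0.19 on the log2 scale against 0.55 and 0.56, and without DNMAML replicate 3 the fit gave 0.57 with an adjusted p of 0.000161. Of the 6 fits that left out 1 library, this was the only 1 that called MAML1. In the others its adjusted p rose to as much as 0.201. NIC1 cells with IL-4 had 83, 83.6 and 92.9 CPM, within or just above the range of IRES cells. The protein in DNMAML vectors is usually cut from MAML1, and reads from a vector cannot be told apart from reads of the gene in these counts.

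NOTCH1, the receptor whose intracellular part is carried by the NIC1 vector, was lower in DNMAML cells. IRES libraries had 199, 274 and 219 CPM and DNMAML libraries 155, 237 and 171 CPM. The groups overlapped because experiment 2 was high in both, but DNMAML was below IRES within each experiment, and the fall was 0.31 on the log2 scale (SE 0.05, adjusted p = 0.0253). NOTCH1 was called in 1 of the 6 fits that left out 1 library. Of the 12 tested receptors and ligands (15 listed), NOTCH1 was the only one called. NOTCH2, with 188 ± 7.75 CPM in IRES and 184 ± 22.8 CPM in DNMAML cells (SD, n = 3), had a log2 difference of -0.04 (SE 0.07). NOTCH3, itself also a target of Notch, had 98.7, 199 and 186 CPM in IRES and 105, 170 and 112 CPM in DNMAML libraries, which was lower in experiments 2 and 3 and not in 1 (log2 -0.30, SE 0.13, adjusted p = 0.57, and -0.15 without DNMAML replicate 3). The ligands JAG1 (log2 -0.29, SE 0.26) and DLL4 (log2 0.76, SE 0.45, at about 1 CPM or less) and the non-canonical ligand DLK1 (log2 0.15, SE 0.06, adjusted p = 0.472) did not pass.

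In the nuclear complex, its processing enzymes and its feedback genes, MAML1 was the only one of 41 tested members called. RBPJ, the DNA-binding partner, stood at 170 ± 6 CPM in IRES and 175 ± 18.2 CPM in DNMAML cells (SD, n = 3; log2 0.04, SE 0.07). MAML3 had 59.2, 37.6 and 64.8 CPM in IRES and 70.8, 48.7 and 69.4 CPM in DNMAML libraries (log2 0.24, SE 0.07, adjusted p = 0.299). LFNG, a glycosyltransferase that tunes the receptors, had 6.96, 22.7 and 9.26 CPM in IRES and 5.93, 13 and 6.87 CPM in DNMAML libraries (log2 -0.54, SE 0.17, adjusted p = 0.296).

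None of the 20 tested Notch target genes (26 listed) was called in this test, and HES1 and SNAI1 lay just past the threshold. Of the 20, 7 were lower and 0 higher at an unadjusted p under 0.05 (4.04% and 3.71% of all tested genes). A negative log2 difference was seen in 12 of the 20, and in 50.8% of all tested genes. The median was -0.10 against -0.0020 over all tested genes. In experiments 1, 2 and 3 the median of the targets was 0.14, -0.20 and -0.31. HES1, a repressor and the most used readout of Notch, had 9.59, 23.1 and 14.4 CPM in IRES libraries and 4.84, 12.1 and 5.9 CPM in DNMAML libraries. The groups overlapped across experiments, yet the level was lower in DNMAML cells in each of the 3, by 0.97, 0.92 and 1.26 on the log2 scale (fit: log2 -1.05, SE 0.19, adjusted p = 0.0516). SNAI1, a repressor of epithelial genes that Notch can induce, showed 6.83, 23.5 and 13.6 CPM in IRES and 4.15, 10.1 and 5.07 CPM in DNMAML libraries (log2 -1.16, SE 0.21, adjusted p = 0.0516). HES4 had 2.36, 4.81 and 4.74 CPM in IRES and 2.04, 2.17 and 1.99 CPM in DNMAML libraries, 3 values that lay below every IRES library (log2 -0.91, SE 0.21, adjusted p = 0.101).

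HES1 and SNAI1 lay so near the threshold that the method decided the call. HES1 had an adjusted p of 0.0487 with the size factors of DESeq2 in place of TMM, 0.0205 in limma-voom and 1.71e-05 in DESeq2, and 0.284 without DNMAML replicate 3. A fit to the 6 libraries alone, which called 166 genes (1.1%), gave it 5.85e-05. SNAI1 had 4.11e-06 in DESeq2 and 0.0705 in limma-voom, and 0.284 without DNMAML replicate 3. DTX1, a ubiquitin ligase, was at 1.35 CPM or less in all 6 libraries and lower in DNMAML cells in each experiment, by 0.60, 0.97 and 1.14 on the log2 scale, and did not pass (log2 -1.11, SE 0.36, adjusted p = 0.312). GATA3, a transcription factor at about 1 CPM or less, had a log2 difference of -0.83 (SE 0.40, adjusted p = 0.636). The lysosomal protease LGMN differed by -0.43 (SE 0.20, adjusted p = 0.622), and by -0.30 without DNMAML replicate 3. HEY1 differed by -0.16 (SE 0.20), HEYL by 0.025 (SE 0.23), NRARP by 0.0027 (SE 0.20) and MYC by 0.08 (SE 0.12). The remaining tested targets were HES6 (0.05), DTX4 (-0.21), CCND1 (-0.10), PTCRA (-0.03), BCL2A1 (0.04), TRIB1 (-0.11), CDKN1A (0.03), IL7R (0.34, SE 0.50) and CD3G (0.49, SE 1.32). Without DNMAML replicate 3, 15 of the 20 targets were negative, with a median of -0.16, against 7772 of all 15238 genes tested in that fit. Over the fits that left out 1 library the median of the targets ran from -0.24 without IRES replicate 1 to -0.02 without IRES replicate 2.

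**Figure D2:**
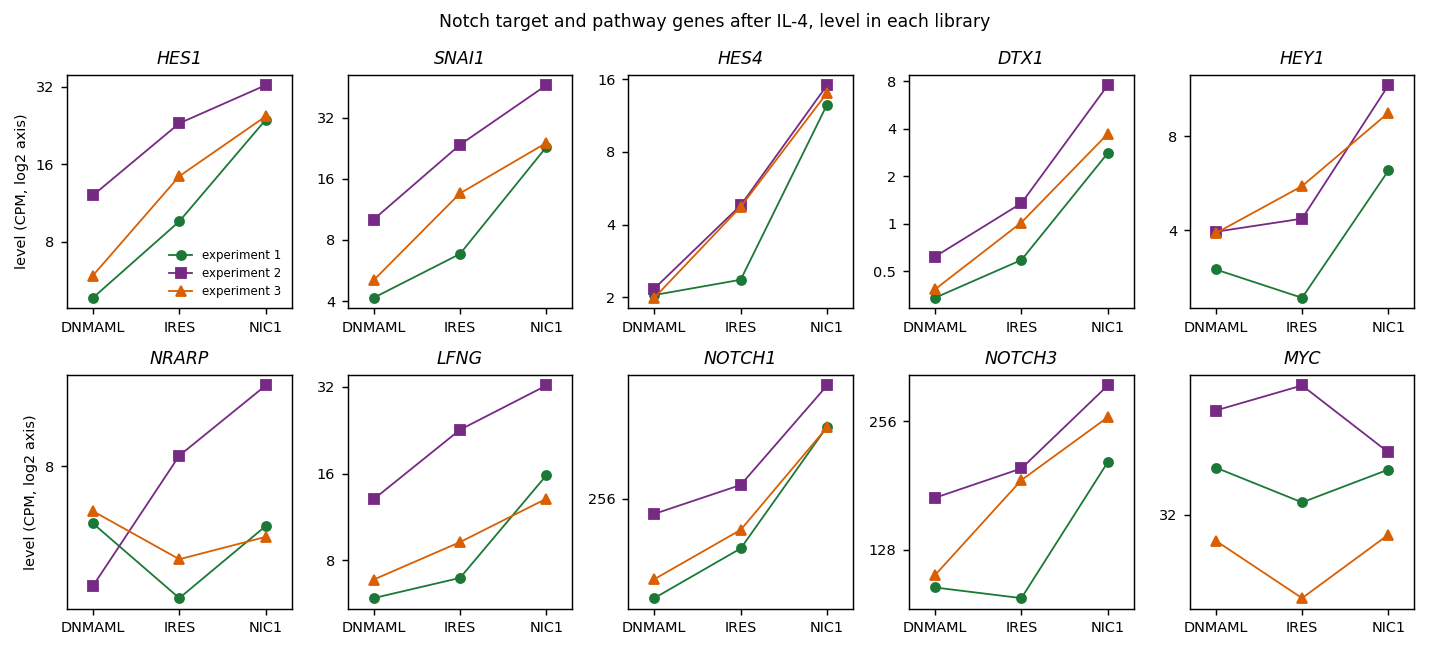
Level in CPM (y axis, log2 scale) of 10 Notch target and pathway genes in DNMAML, IRES and NIC1 cells after IL-4 (x axis); each point is 1 library and each line joins 1 experiment. HES1 and SNAI1 were lower in DNMAML and higher in NIC1 cells than in IRES cells in each experiment, and MYC and NRARP had no common order.

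Macrophage and matrix genes held the clearest falls. ACP5, the tartrate-resistant acid phosphatase of osteoclasts and macrophages, stood at 57.5, 59.9 and 50.3 CPM in IRES and at 31.7, 36.4 and 26.7 CPM in DNMAML libraries. All DNMAML libraries lay below all IRES libraries, and the fall was 0.83 on the log2 scale (SE 0.10, adjusted p = 0.000637). It was the one gene of the 14 that stayed called when each of the 6 libraries was left out in turn, but it was not called without all of experiment 3 (adjusted p = 0.122) or without the block (0.515). MAF and MMP7 were called in 5 of those 6 fits and CD36 in 3. Each of the remaining called genes was called in 2 or fewer of them. ACP5 (chr19:11574660-11579008, minus strand, GRCh38) overlaps ZNF627 on the other strand, and whether the counting used strand is not given in the sources used here.

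MAF, a transcription factor of macrophage identity and of IL-10, had 8.08, 8.64 and 13 CPM in IRES and 3.06, 4.73 and 5.39 CPM in DNMAML libraries, again without overlap (log2 -1.17, SE 0.16, adjusted p = 0.00186). CD36, which takes up oxidised lipoprotein and fatty acids, had 28.2, 15.4 and 20.2 CPM in IRES and 12.7, 9.31 and 11 CPM in DNMAML libraries. The highest DNMAML library was thus below the lowest IRES library (log2 -0.94, SE 0.14, adjusted p = 0.0089), and without DNMAML replicate 3 the adjusted p was 0.0598. MAF and CD36 were the only 2 called of 24 tested macrophage identity and phagocytic genes, whose median log2 difference was 0.01.

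In the matrix and protease list the 2 called genes of 31 went in opposite directions. MMP7, matrilysin, had 60.7, 30.7 and 57.3 CPM in IRES and 29.9, 15.7 and 31.4 CPM in DNMAML libraries. The groups overlapped only through IRES replicate 2, and the fall within experiments was 1.02, 0.95 and 0.86 on the log2 scale (fit: log2 -0.95, SE 0.12, adjusted p = 0.0054). MMP2, gelatinase A, had 113, 117 and 150 CPM in IRES and 154, 180 and 172 CPM in DNMAML libraries, a rise of 0.42 without overlap (SE 0.07, adjusted p = 0.0246). It was called in 1 of the 6 fits that left out 1 library.

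The remaining falls were in KRT3, LGI2 and RCOR1. KRT3, a keratin of the corneal epithelium, had 4.86, 12.9 and 8.83 CPM in IRES and 1.43, 4.97 and 2.25 CPM in DNMAML libraries, the largest fold of the 14 (3.12-fold lower, log2 -1.64, SE 0.29, adjusted p = 0.0467). LGI2, a secreted protein of the leucine-rich glioma-inactivated family, fell by 0.88 on the log2 scale (SE 0.17, adjusted p = 0.0467) and RCOR1 by 0.29 (SE 0.05, adjusted p = 0.0253). In all 3 genes the groups overlapped and experiment 2 was highest in both.

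The other rises were all near 1.3-fold. MAPK13, the p38 delta kinase, had 74.2, 83.9 and 78.1 CPM in IRES and 94.5, 104 and 91.7 CPM in DNMAML libraries, without overlap (log2 0.30, SE 0.05, adjusted p = 0.0108). FOS rose from 29.8, 27.9 and 34 CPM to 40.5, 38.2 and 45.9 CPM, also without overlap (log2 0.44, SE 0.09, adjusted p = 0.0467), but it was called in none of the 6 fits that left out 1 library. GABARAPL1 rose by 0.34 on the log2 scale (SE 0.06, adjusted p = 0.0345), with overlapping groups.

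IL13RA1 was the only called member among 26 tested genes of IL-4 receptor signalling. It pairs with IL4R to form the receptor that binds both IL-4 and IL-13. IRES libraries had 278, 157 and 223 CPM and DNMAML libraries 348, 197 and 299.8 CPM, so the experiments differed more than the constructs, and the rise within experiments was 0.36 on the log2 scale in the fit (SE 0.06, adjusted p = 0.0253). IL4R itself had a log2 difference of 0.09 (SE 0.11) and STAT6 of -0.12 (SE 0.06, adjusted p = 0.66; -0.055 without DNMAML replicate 3).

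The IL-4 response genes did not pass the test: 0 of 26 tested members (36 listed) were called, 2 were higher and 2 lower at an unadjusted p under 0.05, and the median log2 difference was -0.12. CISH, the cytokine-inducible feedback inhibitor, had 125, 99.6 and 116 CPM in IRES and 151, 108 and 114 CPM in DNMAML libraries after IL-4, against 1.17 to 2.03 and 1.88 to 2.66 CPM in the unstimulated libraries. Both constructs lay far above their unstimulated level, and they overlapped each other after IL-4 (log2 0.12, SE 0.07, adjusted p = 0.757). SOCS1 had 60.8, 39.4 and 57.9 CPM in IRES and 56.8, 36.4 and 49.6 CPM in DNMAML libraries (log2 -0.14, SE 0.12).

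ALOX15, the lipoxygenase that IL-4 induces in human monocytes, had 10.9, 10.1 and 9.99 CPM in IRES and 7.9, 7.14 and 9.56 CPM in DNMAML libraries. These did not overlap, but the difference of -0.34 (SE 0.14) had an adjusted p of 0.502. PPARG, a lipid-sensing nuclear receptor, differed by -0.28 (SE 0.12, adjusted p = 0.514), most of it in experiment 3 (-0.14, -0.03 and -0.65 in experiments 1, 2 and 3), and by -0.13 without DNMAML replicate 3. TGM2, the most abundant of the IL-4 genes named here at 743 ± 98.2 CPM in IRES cells (SD, n = 3), differed by -0.16 (SE 0.29), and by -0.29 without that library. IL1RN was at 517 CPM in both groups (SD 6.09 in IRES and 9.77 in DNMAML, n = 3). CCL22, CD209, KLF4 and FCER2 differed by 0.09, -0.10, 0.30 and 0.35, with standard errors of 0.20, 0.19, 0.18 and 0.48. Without DNMAML replicate 3, CCL22 differed by 0.25, CD209 by -0.21 and FCER2 by 0.21. MRC1 had too few counts to be tested, 1 over the 6 libraries.

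Other gene groups are described by counts and medians, and the members named in this paragraph and the next were chosen after their values were seen. All 35 cell cycle genes had a negative log2 difference (50.8% of all tested genes did), 12 of them at an unadjusted p under 0.05, and 0 were called. The median was -0.23, but it was -0.24, 0.0070 and -0.44 in experiments 1, 2 and 3, with 33, 17 and 35 of the 35 negative. Mitotic genes were among the 12: CDC20 had 20.2, 14.7 and 22.1 CPM in IRES and 17, 11.9 and 14.5 CPM in DNMAML libraries (log2 -0.39, SE 0.12, adjusted p = 0.265), and PLK1 differed by -0.40 (SE 0.15, adjusted p = 0.453; -0.23 without DNMAML replicate 3). Without DNMAML replicate 3, 30 of 35 were negative with a median of -0.13, and in unstimulated cells 34 of 35 were (49.4% of all tested genes), with a median of -0.22.

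Among NF-kappaB and inflammatory genes 19 of 25 were positive, 7 were higher and 1 lower at an unadjusted p under 0.05, and 0 were called (median 0.13, and 0.12 without DNMAML replicate 3). RELB, a subunit of the non-canonical pathway, had 167, 124 and 171 CPM in IRES and 201, 147 and 197 CPM in DNMAML libraries (log2 0.24, SE 0.05, adjusted p = 0.0998), and IL1A had a log2 difference of 0.78 (SE 0.21, adjusted p = 0.198). The 7 tested MHC class II genes had a median of -0.59 and 0 calls. Of these, 6 were negative, and 0 were higher and 3 lower at an unadjusted p under 0.05. Without DNMAML replicate 3 the median was -0.66, with 5 negative. CD74, the invariant chain and by far the most abundant of them (281 to 395 CPM), had a log2 difference of -0.03 (SE 0.08; 0.10 without DNMAML replicate 3). HLA-DRB1, with the largest difference and few counts, had 26, 10 and 41 counts in IRES and 13, 5 and 6 in DNMAML libraries (log2 -1.69, SE 0.34, adjusted p = 0.0516). Without DNMAML replicate 3 it was -1.06 with an adjusted p of 0.502. HLA-DRB1 shares sequence with its paralogs, so its counts are uncertain. FOS was the only called gene of 25 immediate early genes and CD36 of 21 genes of lipid uptake, efflux and storage. The chemokine (19 tested), cholesterol synthesis (23), glycolysis (25), unfolded protein (21) and survival (27) lists had 0 called members and medians of -0.0080, -0.02, -0.01, 0.06 and 0.05. The 15 tested granule protease and progenitor genes had 0 calls and a median of -0.01, with 8 negative and 7 positive. At an unadjusted p under 0.05, 2 of them were higher and 3 lower. One of the 15, the granule protease PRTN3, lay lower in DNMAML cells without overlap (28.5, 26.5 and 28.9 against 35.5, 47.6 and 38.8 CPM). It did not pass (log2 -0.53, SE 0.13, adjusted p = 0.145).

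**Figure D3:**
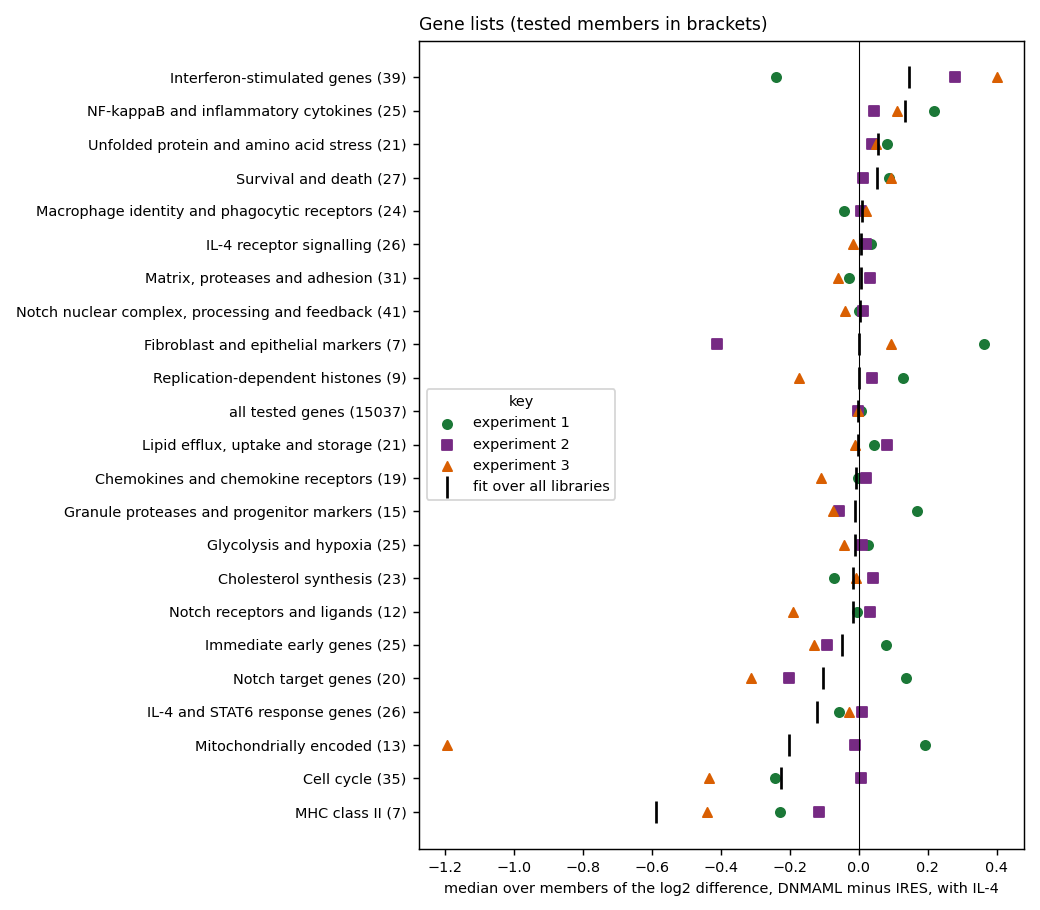
Median log2 difference (x axis, DNMAML minus IRES with IL-4) of each gene list with at least 7 tested members and of all tested genes (y axis); coloured symbols are the medians of per-experiment differences of log2 CPM (prior count 2) and black bars the median of the fitted log2 changes. Cell cycle genes lie at -0.24, 0.0070 and -0.44 in experiments 1, 2 and 3, and mitochondrially encoded genes at 0.19, -0.01 and -1.19.

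The medians of the interferon-stimulated and the mitochondrially encoded genes changed sign when a library was left out. The 39 interferon-stimulated genes had a median of 0.15, with medians of -0.24, 0.28 and 0.40 in experiments 1, 2 and 3, and 0 were called. Over the fits that left out 1 library the median ran from -0.05 without DNMAML replicate 3 to 0.37 without IRES replicate 1, and it was -0.01 without IRES replicate 2. In unstimulated cells 0 of the 39 were below 0 and the median was 0.24. The 13 mitochondrially encoded genes were all negative in the fit (median -0.20, 0 called), but their medians were 0.19, -0.01 and -1.19 in experiments 1, 2 and 3. They took 0.508% of the gene counts of DNMAML replicate 3, against 1.14% to 2.64% in the other 5 libraries, and without that library 1 of the 13 was negative and the median was 0.17. Leaving out any other of the 6 libraries gave medians of -0.48 to -0.18, and in unstimulated cells, which do not include it, the median was 0.01.

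DNMAML replicate 3 was also the library with the most genes counted nowhere else. It held 2079 genes with at least 1 count that had 0 counts in the other 17 libraries. They shared 2401 counts, 0.016% of its gene counts; 1814 had a single count and none had more than 4. Those with 4 counts included TENM1, C10orf71, OLFML1, TOPORSLP and LINC01018. Protein-coding genes made up 22.2% of the 2079 (34% of all genes in the file), processed pseudogenes 22.1% (17.5%) and long intergenic RNAs 20.9% (12.6%). None of the 2079 entered the test.

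Among marker sums for other cell types, this library had the lowest T cell and B cell sums and the highest liver sum of the 6 libraries. The T cell list summed to 76.2 CPM against 78.1 to 97.1 CPM in IRES libraries (TRAC made up 95.3%, and CD3E was at 0). For B cells it was 8.34 against 8.74 to 12.5 CPM, and for liver 460 against 322 to 412 CPM (SERPINA1 made up 99.8%). The DNMAML libraries ran from 385 to 460 CPM in the liver sum. The 2 tested liver genes were higher in DNMAML cells in all 3 experiments. Their median log2 difference was 0.41, 0.22 and 0.17 in experiments 1, 2 and 3. The fibroblast and epithelial list summed to 126 CPM against 98.6 to 182 CPM (COL1A1 made up 76.3%, and LUM and KRT5 were at 0). The erythroid and megakaryocyte, neuron and glia, muscle and testis sums also lay within the range of the IRES libraries. COL3A1 had 31 counts in IRES replicate 2 and 0 or 1 in the other 5 libraries. The part of these markers in the results was not tested.

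The spread of the differences was wider in experiment 3: the SD of the log2 difference over genes above 10 CPM was 0.159, 0.151 and 0.207 in experiments 1, 2 and 3. Without DNMAML replicate 3, 7 genes were called, all among the 14: ACP5, MAF, MMP7 and RCOR1 lower, and MAML1, MMP2 and MAPK13 higher. The log2 differences of the 7 that were no longer called had the same sign without it, CD36 at -0.96, KRT3 at -1.59, LGI2 at -0.76, NOTCH1 at -0.29, IL13RA1 at 0.35, GABARAPL1 at 0.31 and FOS at 0.48. Leaving out IRES replicate 3 left 1 call, ACP5, and leaving out all of experiment 3 left 2, MAML1 and MMP2, with none of the 8 falls called.

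**Figure D4:**
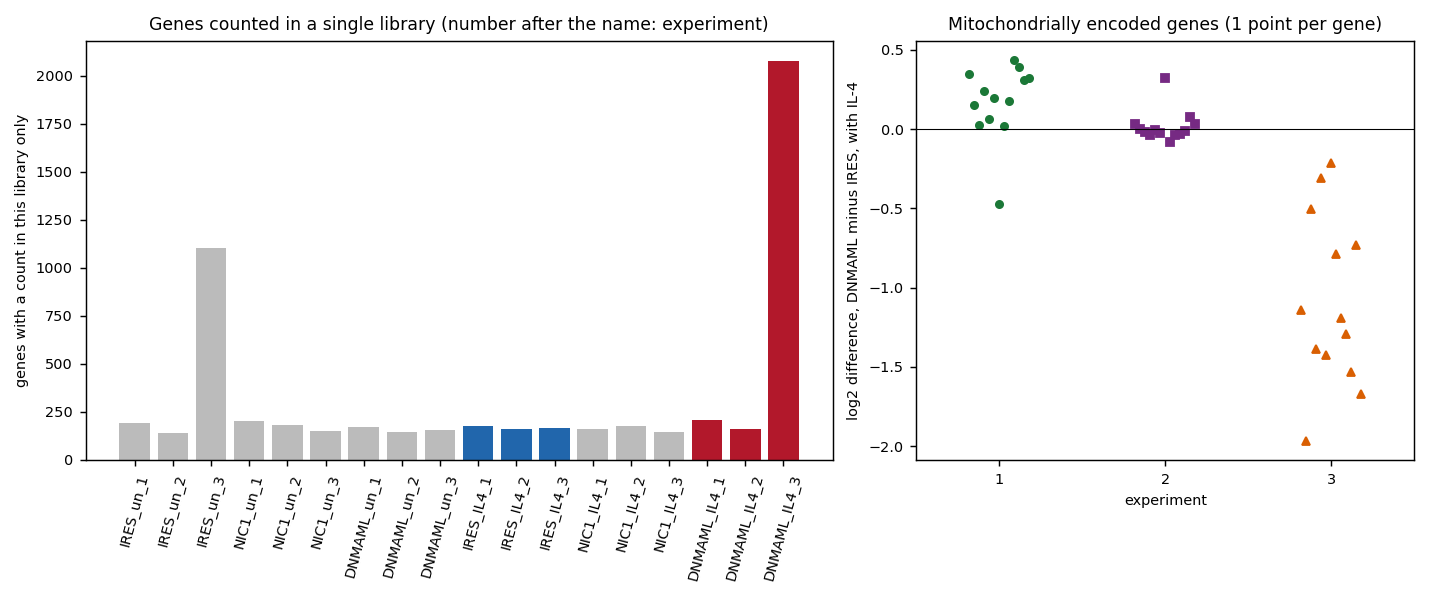
Left, number of genes with a count in 1 library only (y axis) for each of the 18 libraries (x axis; red, DNMAML with IL-4; blue, IRES with IL-4; grey, the rest); right, log2 difference between DNMAML and IRES with IL-4 (y axis) of the 13 mitochondrially encoded genes in each experiment (x axis). DNMAML replicate 3 has 2079 such genes, and the mitochondrial medians are 0.19, -0.01 and -1.19.

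The same constructs without IL-4 share no library with these 6, although libraries of one construct and number may come from one culture and then are not independent. DNMAML and IRES differed there in 22 genes (0.146% of those tested), 10 higher (0.0665%) and 12 lower (0.0798%). Of the 14 genes called with IL-4, 7 were also called without it, all in the same direction (50% of the calls with IL-4 and 31.8% of those without). These 7 were ACP5, MAF, CD36, NOTCH1, MAML1, MMP2 and FOS. All 14 had the same sign without IL-4, as had 65.9% of all tested genes. MAF had 9.51, 11.3 and 16.1 CPM in unstimulated IRES and 4.26, 6.15 and 5.34 CPM in unstimulated DNMAML libraries (log2 -1.21, SE 0.15, adjusted p = 0.00111), close to the -1.17 seen with IL-4. MMP7 missed the threshold without IL-4 (log2 -0.60, SE 0.13, adjusted p = 0.0698).

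The difference between the DNMAML effects with and without IL-4 was tested directly, and 0 genes passed in edgeR, DESeq2 or limma-voom. At an unadjusted p under 0.05 there were 237 in edgeR (1.58% of those tested), 81 in DESeq2 and 458 in limma-voom. For MMP7 the difference between the 2 effects was -0.35 (SE 0.18, unadjusted p = 0.0669) and for MAF 0.04 (SE 0.22). For HES1 it was -0.29 (SE 0.27).

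NIC1 cells carry active Notch, the opposite manipulation. Unstimulated NIC1 and IRES libraries, which are none of the 6, differed in 808 genes (5.37%). All 14 genes had the opposite sign there, as had 55.6% of all tested genes, and 9 of the 14 were themselves called there. The unstimulated IRES libraries may come from the same cultures as those with IL-4, so these comparisons may not be independent. MMP7 had 24.2 to 47.5 CPM in unstimulated IRES and 59.2 to 172 CPM in unstimulated NIC1 libraries (log2 1.5, SE 0.12, adjusted p = 1.93e-06), and MAF, CD36, KRT3, NOTCH1 and RCOR1 were higher as well. The NOTCH1 counts of NIC1 cells may include reads from the vector, which carries part of that gene, and these cannot be told apart. MMP2 (log2 -0.87, SE 0.08, adjusted p = 1.06e-06), IL13RA1 and MAPK13 were lower. ACP5, the gene with the smallest adjusted p in DNMAML cells, was at 79.1, 61.2 and 51 CPM with NIC1 and 57.8, 61.7 and 52.4 CPM in IRES cells (log2 0.15, SE 0.09, adjusted p = 0.423).

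NIC1 with IL-4 shares its IRES libraries with the DNMAML comparison, so the values only stand side by side. With NIC1, 818 genes were called (5.44%), 567 higher (3.77%) and 251 lower (1.67%). The log2 change over IRES was 1.01 with NIC1 and -1.17 with DNMAML for MAF, 1.26 and -0.95 for MMP7, 0.84 and -1.05 for HES1, 1.84 and -0.91 for HES4, -0.86 and 0.42 for MMP2, and 0.10 and -0.83 for ACP5. For MAML1 (0.04 and 0.44) and FOS (0.04 and 0.44), NIC1 with IL-4 had the same sign as DNMAML.

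**Figure D5:**
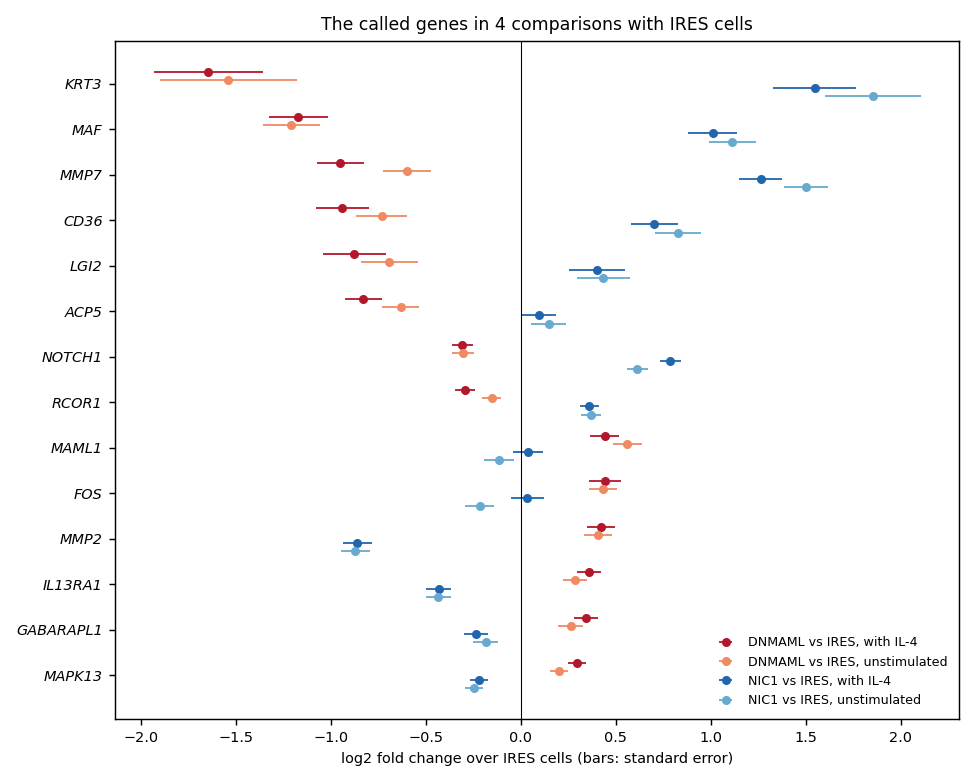
Log2 fold change over IRES cells (x axis, with its standard error as a bar) of the 14 called genes (y axis) for DNMAML and NIC1 cells, each with IL-4 and unstimulated; comparisons under the same stimulation share their IRES libraries. The unstimulated NIC1 changes are opposite in sign to the DNMAML changes for all 14, and ACP5 lies at 0.15 there.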

How the data were processed

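The authors deposited 1 table of raw read counts per library, in whole numbers. FastQC, Trimmomatic, HISAT2, HTSeq and DESeq2 are named for GRCh38.p12, per the submitters' processing notes, without versions. The annotation and the use of strand in counting were not given there.

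Lines that name no gene (23.8% to 30.9% of reads) were left out. Counts in genes came to 12410668 to 15099788 per library over the 18. Filtering by filterByExpr left 15037 genes. CPM are on the TMM scale. The main test was edgeR's (4.0.16) quasi-likelihood F test on all 18 libraries, with 6 group means, the experiment as block and a threshold of 0.05 after Benjamini-Hochberg adjustment; limma 3.58.1 and DESeq2 1.42.0 were alternatives, in R 4.3.3. Scripts were tested on simulated data. Replicates differed by more than counting noise.

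The experiment numbers in the titles paired the libraries: deviations of log2 CPM (prior count 2) from group means correlated in all 45 same-number pairs (r across genes 0.206 to 0.759, median 0.466). In the 90 pairs of different number and different group r was -0.654 to 0.354 (median -0.395), so the ranges overlapped. Deviations from a group mean sum to 0 over its 3 libraries. Positive values for the same number therefore draw those of different number below 0, which is no separate evidence of pairing. Each of the 18 libraries correlated best with one of its own number. Members and gene lists were chosen with earlier results of these data known. Named were the tested Notch targets, some of the other tested Notch genes, 11 IL-4 genes and called list members. Also named were the called genes with the largest changes and a group mean of at least 2 CPM, and some genes seen in 1 library only. Others (STAT6 and IL4R in the text included) were chosen after seeing values. Gene coordinates are from GENCODE (GRCh38).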

Additional observations from a re-analysis of the deposited data

Results flagged for a closer look

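DNMAML with IL-4 replicate 3 held 2079 genes with a count that no other library had, none of which entered the tests. The same number was 143 to 206 in 16 of the other libraries, the 3 IRES libraries with IL-4 included, and 1102 in unstimulated IRES replicate 3.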

How the results depend on the processing

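The number of calls depended on the model, while all 14 genes kept the sign of their change in every alternative run. Those runs reuse libraries on which the 14 were called, so the kept signs are no independent support. Without the replicate block 0 genes were called with IL-4 (357 at an unadjusted p under 0.05) and 0 without IL-4. Fitting only the 6 libraries with the block gave 166 calls, no low-count filter 278, a filter set without DNMAML replicate 3 24, DESeq2 59 (17 higher, 42 lower) and limma-voom 22. Leaving out DNMAML with IL-4 replicate 3 and unstimulated IRES replicate 3 together, the 2 with most genes, there were 6 calls with IL-4 and 2 in unstimulated cells. With all 18 libraries, DESeq2 gave 63 calls in unstimulated cells, against 22 in the main test. Leaving out 1 library or 1 experiment gave 1 to 48 calls: 4 without IRES replicate 2, 1 without IRES replicate 3, 24 without DNMAML replicate 2, 7 without DNMAML replicate 3, 48 without experiment 1 and 2 without experiment 3. DESeq2's size factors (15 calls) and a filter of 1 CPM in 3 libraries (17 calls) stayed within 1.5 times the 14.

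Some genes turned sign, each with a difference in the main fit smaller than its standard error. FCER2 (0.35, SE 0.48) had only 4 to 14 counts in each of the 6 libraries. NRARP was -0.023 without the replicate block, -0.0063 with only the 6 libraries, -0.024 in limma-voom, and -0.074 without the 2 libraries. IL1RN was 3.1e-05 with DESeq2's size factors and 0.00066 under the strict filter. In fits that left out 1 library or experiment the log2 difference ranged from -0.33 to 0.11 for HEY1, -0.16 to 0.26 for NRARP, -0.095 to 0.033 for NOTCH2, -0.37 to 0.061 for TGM2, -0.10 to 0.10 for IL1RN, -0.21 to 0.38 for CCL22, -0.23 to 0.996 for FCER2, -0.21 to 0.13 for CD209 -0.0051 to 0.099 for RBPJ and -0.13 to 0.13 for CD74, which was 0.11 without the 2 libraries. The list medians without each library were added after seeing the data. The cause of these changes was not tested. Depth limits genes of a few CPM, such as those of MHC class II.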

Other observations

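Some genes outside the lists lay just past the threshold with adjusted p-values of 0.0503 to 0.0516, and were picked after their values were seen. The transcription factor RUNX3 had 360, 399 and 402 CPM in IRES and 321, 320 and 293 CPM in DNMAML libraries, and BCL7A 28.4, 30.8 and 32.1 against 22.6, 25.8 and 23.4 CPM. In both, the DNMAML libraries lay below the IRES libraries without overlap. SFTPB, a surfactant protein, had 1.77, 0.977 and 1.97 CPM in IRES and 4.84, 2.33 and 3.59 CPM in DNMAML libraries, higher without overlap. PALLD, an actin-binding protein, was higher by 0.52 on the log2 scale (SE 0.10) and the receptor IL1R1 lower, at -0.64 (SE 0.13).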
